A study of Mus musculus with 16 samples.

Results

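Detoxification genes known as targets of the transcription factor NRF2, none of them a glutathione S-transferase, were followed in the livers of mice fed coffee diterpenes: 5 genes, each with 1 probe, of 8923 genes and unnamed probes on the array. They were chosen by gene symbol, as every probe annotated to Ephx1, Cbr1, Nqo1, Gclc or Gclm alone, and each of the 5 had a value on all 16 arrays. The tested livers came from 8 female transgenic APOE3Leiden (E3L) mice, over 99% C57BL6/JIco in background, aged 10 weeks at the start and fed diet W with 0.04% cafestol and 0.02% kahweol by weight for 4 weeks. The control livers came from 7 mice of that transgenic line, also female, kept on diet W alone for the same time, so both groups carried the human APOE3Leiden transgene and ate a semi-synthetic Western-type diet with 15 g saturated fat and 0.25 g cholesterol per 100 g. Poly(A) RNA of each cafestol-fed mouse was labelled with Cy5 and hybridised on 2 two-colour cDNA arrays, with control-diet liver RNA in Cy3 on every array. The labels name no single control mouse.

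NRF2, encoded by Nfe2l2, is held in the cytoplasm by KEAP1, which directs its degradation. Electrophiles modify KEAP1, and NRF2 then enters the nucleus, pairs with a small MAF protein and binds antioxidant response elements near genes that detoxify reactive compounds. Cafestol and kahweol are known to act on this pathway in rodent liver. The targets studied here cover 3 roles: hydrolysis of epoxides (Ephx1), reduction of carbonyls and quinones (Cbr1 and Nqo1), and the rate-limiting step of glutathione synthesis (Gclc and Gclm).

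Antioxidant response elements were looked for in RefSeq promoter windows (build GRCm38.p6, 250 bases before to 50 after a gene's start), on both strands, with the letters TGACNNNGC and with the looser TGANNNNGC, which includes every match of the first. Windows were found for 4 of the 5 genes, all but Gclc. Gclm had a match, which met both forms, and Ephx1, Cbr1 and Nqo1 had 0 matches to either form in these windows. The match lay on the minus strand, from base -134 to base -126 relative to the window's start site. The RefSeq gene record of Gclm begins 70 bases before that site, and counted from the record's first base the match lay from -64 to -56. Of 32851 windows, 12.4% held TGACNNNGC and 41.3% held TGANNNNGC, so a match is common and marks no binding site by itself. Only bases ahead of the gene record are printed, 180 for Gclm and 250 for Ephx1: Gclm is shown because it had the match and Ephx1 because its ratio lay farthest from 0, and capitals mark the match to TGACNNNGC read on the opposite strand.
Gclm, chr3:122245307-122245486, plus strand: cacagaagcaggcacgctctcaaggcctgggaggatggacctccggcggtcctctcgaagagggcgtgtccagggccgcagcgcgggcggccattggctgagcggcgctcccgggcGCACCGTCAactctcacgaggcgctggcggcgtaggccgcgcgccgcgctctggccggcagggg
Ephx1, chr1:181017570-181017819, minus strand: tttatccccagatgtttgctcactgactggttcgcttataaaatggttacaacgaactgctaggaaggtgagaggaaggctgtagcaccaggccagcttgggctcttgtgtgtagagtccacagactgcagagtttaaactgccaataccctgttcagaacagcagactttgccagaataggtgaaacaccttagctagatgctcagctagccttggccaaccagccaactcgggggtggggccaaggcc

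The deposited values are log2 ratios of the 2 channels. No label states which channel stands on top, so each sign is printed as deposited and none is read as induction or repression. Every value was the log2 of a ratio with 1 decimal, so the smallest step from 0 was 0.138, and every array had a median of 0. An array held values for 8094 to 9314 probes, and precision is limited by how few mice and arrays there were. All arrays ran the same way (the lowest correlation between 2 arrays over all features was 0.16, the median 0.59), with 0 dye-swapped arrays, so any bias of a dye towards a gene is part of its ratio in all mice. The mouse identifiers form an SY and a TP series of 4 mice each, whose meaning the labels do not state. The array codes nearly follow them: 8 of 8 TP arrays carried code bl7 and 7 of 8 SY arrays code c3z. The SD over all probes was 0.208 to 0.260 on bl7 arrays and 0.173 to 0.208 on c3z arrays.

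All 5 genes lay below 0, each with a limma adjusted p under 0.05 over 8348 features, in a data set where 25.4% of features were called negative, 18.0% positive and 43.4% in either direction. Ephx1, Cbr1 and Gclm were negative in all 8 mice, as were 11.2% of the 8059 features with values in 8 mice. The 5 spanned a wide range of sizes. Ephx1 and Cbr1 differed about 2-fold between the channels, Gclm by 1.26-fold, and Gclc and Nqo1 by about 1.15-fold. Whether these small differences exceed the spread among control mice cannot be read from these arrays, since the ratio is tested against 0. With an error added for the control RNA, as if 7 control mice with the spread of the cafestol-fed ones had been pooled in equal parts, Ephx1, Cbr1 and Gclm were still called, while Nqo1 (adjusted p = 0.0761) and Gclc (adjusted p = 0.0933) were not.

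Ephx1 encodes microsomal epoxide hydrolase, which converts reactive epoxides to diols in the endoplasmic reticulum. Its log2 ratio was -1.20, -0.85, -1.10 and -1.07 in the SY mice SY521RL, SY518Z, SY524ROB+L and SY522ROB, and -1.07, -1.35, -1.35 and -1.10 in the TP mice TP4215, TP4168, TP4205 and TP4163. All 16 arrays were negative, SY518Z lay nearest to 0, and the series overlapped. The mean of the 8 mice was -1.14 ± 0.16 (SD), which is 2.20-fold from equal channels by limma at an adjusted p of 4.19e-08, and mice ranged from 1.80-fold to 2.55-fold. Of 8348 features, 5 lay farther below 0 than Ephx1.

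Cbr1 encodes a cytosolic carbonyl reductase that uses NADPH to reduce aldehydes, ketones and quinones. It stood at -0.81, -0.88, -0.68 and -0.84 in the SY mice SY521RL, SY518Z, SY524ROB+L and SY522ROB, and at -0.85, -0.99, -1.07 and -1.14 in the TP mice TP4215, TP4168, TP4205 and TP4163. Every array was again negative, and TP4215 was the only TP mouse within the range of the SY mice. The mean of the 8 mice was -0.91 ± 0.15 (SD), or 1.87-fold by limma at an adjusted p of 2.34e-07, with 7 features farther below 0. The 2 arrays of a mouse agreed less well for Cbr1 than for the other 4 genes: their SD within a mouse was 0.143, against 0.040 to 0.073, and the largest gap between them was 0.32. Against a minimum difference of 1.2-fold, Ephx1 (adjusted p = 5.26e-07) and Cbr1 (adjusted p = 6.03e-06) passed limma's treat test, which called 0.815% of features negative and 1.47% in either direction, and Nqo1, Gclc and Gclm did not. The means of Nqo1 and Gclc lie inside that minimum, so neither could pass.

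Nqo1 encodes NAD(P)H quinone dehydrogenase 1, which reduces quinones by 2 electrons at once and is a widely used readout of NRF2 activity. Its log2 ratio was -0.14, -0.20, 0.069 and 0 in the SY mice SY521RL, SY518Z, SY524ROB+L and SY522ROB, and -0.32, -0.26, -0.38 and -0.38 in the TP mice TP4215, TP4168, TP4205 and TP4163. All TP mice lay below all SY mice, and SY522ROB and SY524ROB+L were at or just above 0. Over the 8 mice the mean was -0.20 ± 0.17 (SD), a 1.15-fold difference (limma, adjusted p = 0.00769), with 12 arrays negative, 3 at 0 and 1 positive. Of 8348 features, 730 lay farther below 0. Because ratios were rounded to 1 decimal, the mean of the unrounded values could lie anywhere from -0.26 to -0.14. In the SY mice alone Nqo1 was not called (mean -0.067, limma adjusted p = 0.386), and in the TP mice alone it was (mean -0.34, adjusted p = 0.00607).

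Gclc and Gclm encode the subunits of glutamate-cysteine ligase: GCLC carries the catalytic site, and GCLM binds it and raises its efficiency. Gclc read -0.14, -0.20, 0 and -0.069 in the SY mice SY521RL, SY518Z, SY524ROB+L and SY522ROB, and -0.49, 0, -0.43 and -0.38 in the TP mice TP4215, TP4168, TP4205 and TP4163. Both arrays of TP4168 were at 0, apart from the other 3 TP mice, which were the lowest of all. The mean of the 8 mice was -0.21 ± 0.20 (SD), or 1.16-fold by limma at an adjusted p of 0.0108, with 11 arrays negative, 5 at 0 and 0 positive. Farther below 0 than Gclc were 647 features. The rounding allows a mean from -0.27 to -0.15. In the SY mice alone Gclc was not called (mean -0.10, limma adjusted p = 0.126), and in the TP mice alone it was (mean -0.32, adjusted p = 0.0445).

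The modifier subunit was steadier. Gclm read -0.26, -0.20, -0.14 and -0.26 in the SY mice SY521RL, SY518Z, SY524ROB+L and SY522ROB, and -0.38, -0.49, -0.54 and -0.38 in the TP mice TP4215, TP4168, TP4205 and TP4163. All 16 arrays were negative, and all TP mice lay below all SY mice. The mean of the 8 mice was -0.33 ± 0.14 (SD), or 1.26-fold by limma at an adjusted p of 0.000132, and in 6 of 8 mice both arrays gave the same value. Farther below 0 than Gclm were 201 features. TP4168, at 0 for Gclc, was the mouse with the second lowest Gclm ratio, so the ratios of the subunits did not run in parallel in that mouse. Of the promoters printed above, the one with the TGACNNNGC match belongs to Gclm, at 1.26-fold, and the one without a match to Ephx1, at 2.20-fold. The windows of Cbr1, at 1.87-fold, and Nqo1, at 1.15-fold, had 0 matches as well. Bases outside the windows were not searched, and a link between a match and the size of a ratio was not tested.

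**Figure D1:**
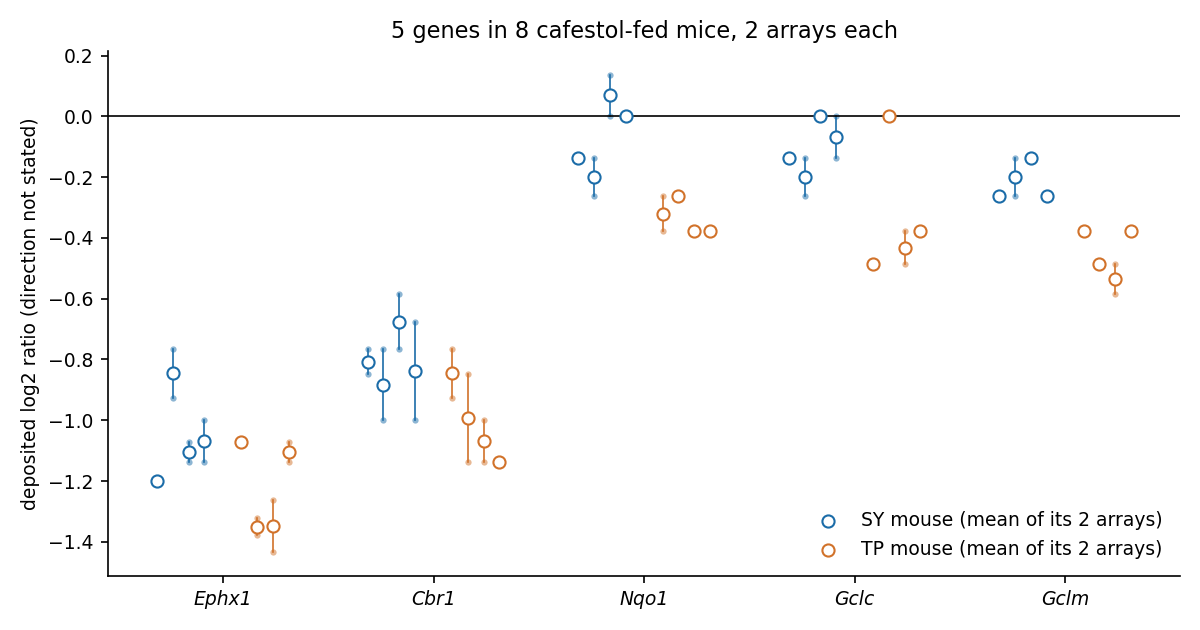
Deposited log2 ratio (vertical axis) of the 5 genes in 4 SY mice (blue, left of each pair) and 4 TP mice (orange, right), with open circles for the mean of a mouse, small dots for its 2 arrays and a line joining them. Ephx1 and Cbr1 lie far below 0 in every mouse, Nqo1 and Gclm separate the series, and Gclc is at 0 in TP4168.

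The sizes of the 5 ratios were compared within each mouse, in 10 pairs, by an exact two-sided sign-flip permutation test over 8 mice, whose smallest possible p is 0.00781, with Benjamini-Hochberg adjustment over the pairs. Ephx1 lay below Nqo1, Gclc and Gclm in 8 of 8 mice, with differences of -0.94 ± 0.20, -0.92 ± 0.26 and -0.81 ± 0.11 on the log2 scale (SD over mice). The exact permutation p was 0.00781 each, the smallest possible before adjustment, and the adjusted p 0.013 each. Cbr1 lay below the same 3 genes in 8 of 8 mice, with differences of -0.70 ± 0.091, -0.69 ± 0.18 and -0.58 ± 0.097 (exact permutation, adjusted p = 0.013 each). Ephx1 lay below Cbr1 in 6 of 8 mice, with a difference of -0.23 ± 0.18 (exact permutation, adjusted p = 0.0391), the mice against it being SY518Z and TP4163. Nqo1 lay above Gclm in 6 of 8 mice and level with it in SY518Z and TP4163, with a difference of 0.13 ± 0.10 (exact permutation, adjusted p = 0.0391). Both of these calls were lost without SY521RL, TP4215, TP4168, SY524ROB+L, TP4205 or SY522ROB (adjusted p 0.0694 to 0.0781). For Nqo1 and Gclm that loss was fixed in advance. The level mice SY518Z and TP4163 add nothing to the sign-flip test, and without any of the others too few mice remain for its p to fall under 0.05. The pairs Gclc and Gclm (difference 0.12 ± 0.18, adjusted p = 0.104) and Nqo1 and Gclc (0.012 ± 0.12, adjusted p = 0.813) did not pass by the exact permutation test. These are differences between measured ratios: cDNA probes differ in how far they bind related transcripts and compress ratios, and that was not tested here.

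The mean of the SY mice was higher, and so nearer to 0, than that of the TP mice for all 5 genes. It was also higher in 4484 of 8348 features, in 13 of 15 glutathione S-transferases and in 16 of 22 other genes induced by NRF2. The SY minus TP difference was 0.27 ± 0.067 for Nqo1 (estimate and SE; limma, adjusted p = 0.0414) and 0.23 ± 0.058 for Gclm (limma, adjusted p = 0.0447). Both passed in a comparison where 5.70% of 8348 features were called and 1.29% were called with the SY mean higher, against 4.41% with it lower. All TP mice lay below all SY mice for Nqo1 and Gclm, an arrangement that 3.40% of the 8059 features with values in 8 mice showed (9.39% had series that did not overlap either way), and the exact permutation p of 0.0286 is the smallest that 4 against 4 mice can give. The difference was 0.16 ± 0.089 for Ephx1 (adjusted p = 0.271), 0.21 ± 0.072 for Cbr1 (adjusted p = 0.102) and 0.22 ± 0.096 for Gclc (adjusted p = 0.176), none of which passed limma's test. Nqo1 was not called without any 1 mouse other than SY518Z (adjusted p 0.0596 to 0.139), nor Gclm without any 1 mouse other than SY518Z or TP4163 (0.0577 to 0.142). Gclc was called only without TP4168, the mouse that read 0, with a difference of 0.33 (adjusted p = 0.0345).

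The spread of the arrays moved with these differences. With every array scaled to a common SD, SY minus TP was -0.066 for Ephx1 and 0.050 for Cbr1, while Nqo1 (0.24, limma adjusted p = 0.0556), Gclc (0.19) and Gclm (0.17, adjusted p = 0.117) kept their sign and none was called. After quantile normalization Ephx1 was at -0.0078, and of the 5 genes only Nqo1 was called (0.23, limma adjusted p = 0.0411). Over all features, limma called 509 after scaling and 564 after quantile normalization, against 476 as deposited. One mouse, SY518Z, was hybridised on an array of each code. Its bl7 array read lower than its c3z array for all 5 genes: by -0.16 for Ephx1, -0.23 for Cbr1 and -0.13 each for Nqo1, Gclc and Gclm, where the median difference over 8127 features was 0 and 33.9% of them read at least 0.12 lower on the bl7 array. The part of array code in the SY and TP difference was not tested beyond this mouse, and in the other 7 mice code and series cannot be told apart.

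**Figure D2:**
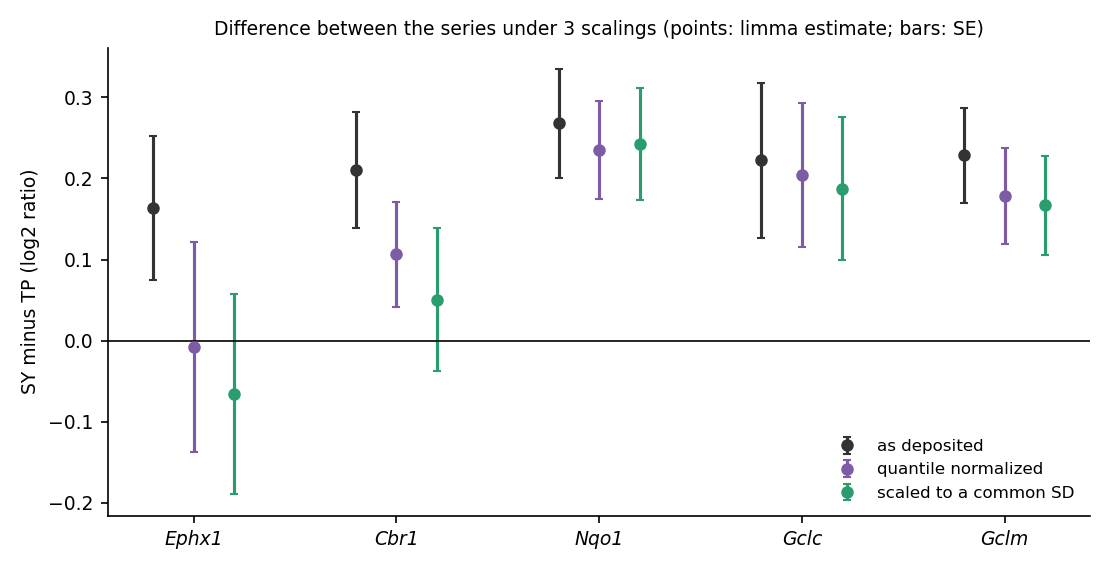
SY minus TP difference in log2 ratio (vertical axis, limma estimate with SE) of each gene as deposited, after quantile normalization between arrays and with arrays scaled to a common SD. The differences of Nqo1, Gclc and Gclm stay between 0.17 and 0.27, while that of Ephx1 goes from 0.16 to -0.0078 and -0.066.

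**Figure D3:**
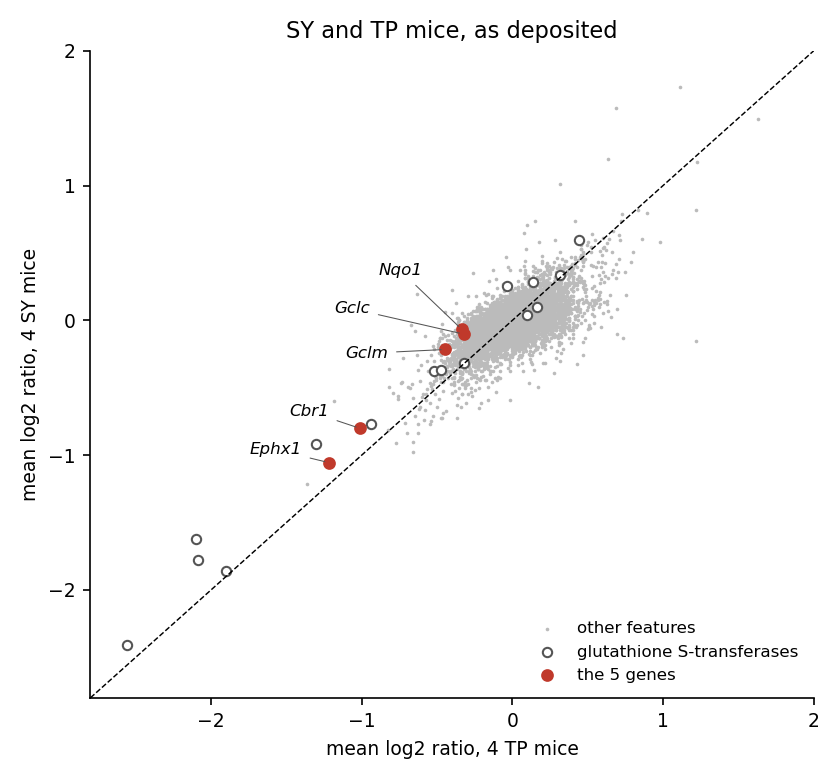
Mean log2 ratio of the 4 SY mice (vertical) against that of the 4 TP mice (horizontal) for all features (grey), glutathione S-transferases (open circles) and the 5 genes (red), with equal values on the dashed line. All 5 genes lie above the line, that is nearer to 0 in SY mice, and 4484 of 8348 features lie above it too. Ephx1 and Cbr1 lie outside the bulk of features.

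Correlations between the genes over the 8 mice were tested in 10 pairs by exact permutation. After Benjamini-Hochberg adjustment 0 pairs passed, with a lowest adjusted p of 0.0708 for Pearson's r and 0.0516 for Spearman's rho, while 5 and 4 pairs were under 0.05 unadjusted. All pairs under 0.05 unadjusted hold Nqo1 or Gclm, which separate the series, so no pooled r is given for the 7 pairs with either gene, and 4 mice per series are too few for a value within it. With each series' mean subtracted, r in those pairs was, as a description, 0.65 for Ephx1 and Gclm, 0.62 for Nqo1 and Gclc, and 0.60 for Cbr1 and Nqo1. It was 0.39 for Cbr1 and Gclm, 0.19 for Nqo1 and Gclm, -0.16 for Gclc and Gclm, and -0.37 for Ephx1 and Nqo1. For the other 3 pairs, Pearson's r over 8 mice was 0.35 for Ephx1 and Cbr1 (exact permutation p = 0.391, adjusted p = 0.489; Spearman's rho 0.25, p = 0.549, adjusted p = 0.61). It was -0.032 for Ephx1 and Gclc (exact permutation p = 0.938, adjusted p = 0.938; rho -0.20, p = 0.633, adjusted p = 0.633). For Cbr1 and Gclc it was 0.51 (exact permutation p = 0.199, adjusted p = 0.317; rho 0.47, p = 0.246, adjusted p = 0.411). All p-values were adjusted over 10 pairs. Without the 2 mice farthest from the median of the first gene, r was 0.40, 0.28 and 0.068, and with each series' mean subtracted it was -0.069, -0.52 and 0.11.

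The genes nearest to each of the 5 were taken as those with the smallest root mean square difference in log2 ratio over the 8 mice, among 6180 other named genes, as a description. Nearest to Ephx1 were D-amino acid oxidase Dao (0.18) and the transferase Gsta2 (0.28), and nearest to Cbr1 were the transferase Gsta4 (0.11) and the lysosomal membrane protein Laptm5 (0.26). For each of these, 0 genes came within 0.1. Nqo1, by contrast, had 127 genes within 0.1, led by the dynactin subunit Dctn3 (0.040) and the mitochondrial ribosomal protein Mrpl44 (0.047). Gclm had 25, led by the small GTPase Arf4 (0.054) and the protein disulfide isomerase P4hb (0.066), and Gclc had 6, led by Ppfibp2 (0.077) and the kinase Sgk2 (0.086).

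Genes with roles like those of Ephx1, Cbr1 and Nqo1, not all from the same enzyme families, were called on both sides of 0. Of 11 other epoxide hydrolases, carbonyl and quinone reductases with values, 2 were called negative, 4 positive and 5 not at all, with a median of 0.082. Over all features 25.4% were called negative and 18.0% positive, with a median of -0.017. Cbr3, a close relative of Cbr1 (cross-hybridisation between their cDNA probes was not tested), was at -0.44 ± 0.27 (SD; limma, adjusted p = 0.00069), negative in 8 of 8 mice. On the other side were soluble epoxide hydrolase Ephx2 (0.20 ± 0.10, adjusted p = 0.00111) and the aldo-keto reductases Akr1c6 (0.26 ± 0.11) and Akr1c12 (0.23 ± 0.14). The quinone reductase Nqo2 was not called (0.092 ± 0.13, adjusted p = 0.106), nor was the retinal reductase Dhrs3 (-0.093 ± 0.10, adjusted p = 0.0556). In glutathione synthesis and supply, Gss, which adds glycine in the step after that of Gclc and Gclm, lay on the side of both, at -0.27 ± 0.11 (limma, adjusted p = 0.00017). Dpep1, which splits a breakdown product of glutathione, was at -0.15 ± 0.082, and Mat1a, which makes the methyl donor upstream of cysteine, was at 0.33 ± 0.30 (adjusted p = 0.0083). The mean of Mat1a was 0.11 in SY and 0.54 in TP mice, a difference that was not called. Those 3 were the called genes of 8 measured. The glycine methyltransferase Gnmt (0.12) and the amino acid carrier Slc1a5 (0.077) were not called.

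Other genes induced by NRF2 lay mostly on the side of the 5. Of 22 measured outside the transferases, 12 were called negative, 3 positive and 7 not at all, with a median of -0.14. The counts here are to be read against all features, with 25.4% called negative, 18.0% positive and a median of -0.017. Farthest below 0 were the ferritin heavy chain Fth1 (-0.70 ± 0.14), the NADPH-supplying pathway enzymes Tkt (-0.46 ± 0.12) and Me1 (-0.43 ± 0.19), and Cbr3, and not called were the aldo-keto reductase Akr1b8 (-0.11) and the exporter Abcc4 (-0.075). Ephx1 and Cbr1 lay below each of these 22 genes, and Nqo1, Gclc and Gclm within their range. Of 15 glutathione S-transferases, 9 were negative, 4 positive and 2 not called, with a median of -0.42, led by Gstm1 (-2.48 ± 0.23), Gstm6, Gstp1 and Gstm2, and Gstt1 (0.11) and Gsta3 (0.069) were not called. Of 7 regulators and partners of NRF2, 3 were called negative, all small: Keap1 (-0.14 ± 0.082), the ubiquitin ligase Trim16 (-0.14 ± 0.062) and the related factor Nfe2l1 (-0.10 ± 0.072). With 43.4% of all features called in either direction, 3 calls among 7 genes is close to the usual share. The KEAP1 binding partner Dpp3 (-0.084) and the ubiquitin ligase subunit Cul3 (0.075) were not called. Nfe2l2 itself had no value among the tested features.

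Ephx1 is also known as a target of the xenobiotic receptors CAR and PXR, and Nqo1 as a target of the dioxin receptor AHR. Of 8 measured CAR and PXR target genes, 3 were called positive, 2 negative and 3 not at all. Among all features 18.0% were called positive and 25.4% negative. The median of these target genes was 0.17, and it was 0.017 in SY and 0.13 in TP mice. The cytochromes Cyp2b9 (0.43 ± 0.43) and Cyp2b10 (0.41 ± 0.36) and the monooxygenase Fmo5 (0.35 ± 0.36) were positive, and the stress gene Gadd45g was at -0.43 ± 0.18. Neither the heme synthesis enzyme Alas1 (0.24) nor the cytochrome Cyp3a13 (0.10) was called. Fmo5 (SY mean 0.069, TP mean 0.63) and Cyp3a13 (SY mean 0.24, TP mean -0.052) were called in the SY and TP comparison, in opposite directions. Of 3 measured AHR target genes, Aldh3a1 was called (0.11 ± 0.11, limma adjusted p = 0.0325), while the cytochromes Cyp1b1 (0.085, values in 6 mice) and Cyp1a2 (0.057) were not. All 3 means were above 0, and that of Nqo1 below. Aldh3a1 is also counted among the genes induced by NRF2. The part of CAR, PXR and AHR in the ratios of Ephx1 and Nqo1 was not tested.

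**Figure D4:**
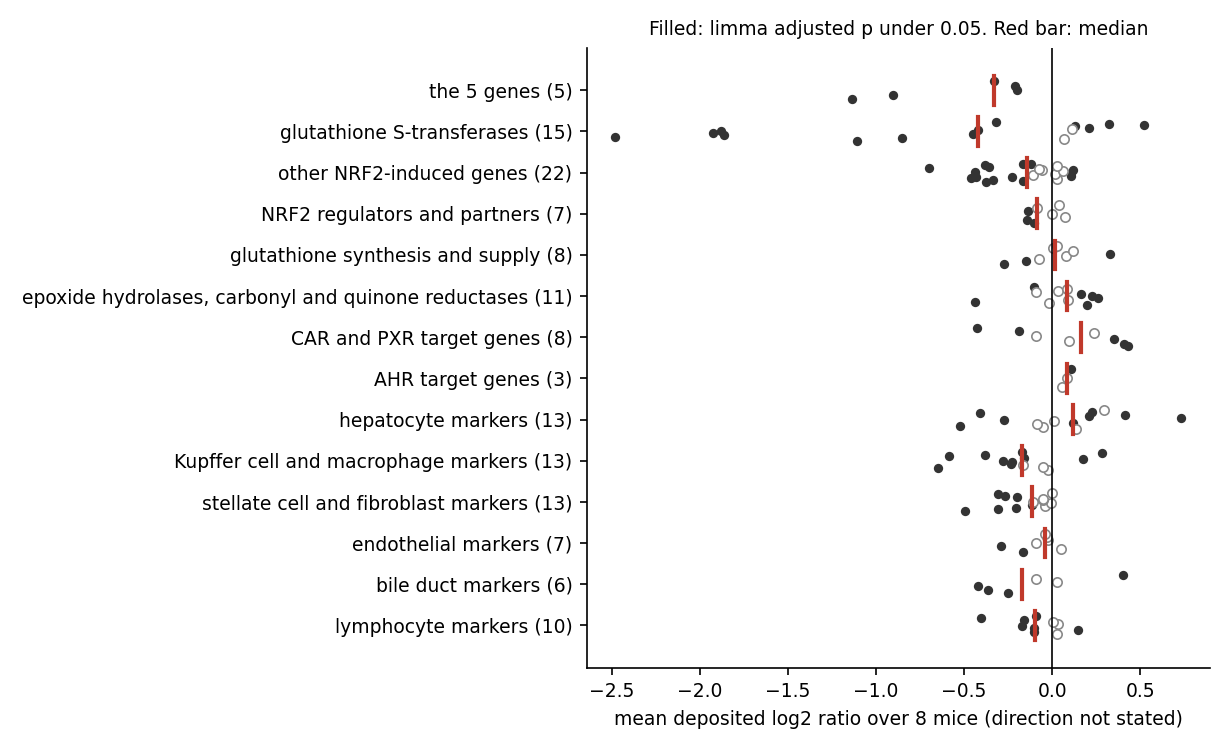
Mean deposited log2 ratio over 8 mice (horizontal axis) of each gene of the named lists, one row per list with the number of genes measured, filled where the limma adjusted p was under 0.05 and open otherwise, with a red bar at the list median. The 5 genes and the glutathione S-transferases reach farther below 0 than any other list. Medians lie above 0 for CAR and PXR target genes (0.17), hepatocyte markers (0.12) and AHR target genes (0.085). So do those of the epoxide hydrolases, carbonyl and quinone reductases (0.082) and of glutathione synthesis and supply (0.016).

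Markers of liver cell types are given by their counts and medians, with no test between lists, to be read against the 25.4% of all features called negative and 18.0% called positive. In whole liver a difference in the number of cells of a type and a difference in RNA per cell cannot be told apart. Hepatocyte markers had 3 of 13 called negative and 5 positive, with a median of 0.12, led by Hpd (0.73 ± 0.22) and Apoa1 (-0.52 ± 0.35). Kupffer cell and macrophage markers had 8 of 13 negative and 2 positive, with a median of -0.17, led by Cd68 (-0.65 ± 0.22) and Lgals3 (-0.58 ± 0.32). Stellate cell and fibroblast markers had 7 of 13 negative, led by Acta2 (-0.49 ± 0.28) and Col1a1 (-0.31 ± 0.28), and lymphocyte markers 6 of 10, led by Cd52 (-0.40 ± 0.19) and Cd8a (-0.17 ± 0.12). Endothelial markers had 2 of 7 negative, Eng (-0.29 ± 0.070) and Cdh5 (-0.17 ± 0.091), and bile duct markers 3 of 6, with Epcam at -0.42 ± 0.24 and Cldn4 positive at 0.40 ± 0.42. Cldn4 was called in the SY and TP comparison, with means of 0.70 in SY and 0.10 in TP mice. The medians of the last 4 lists, stellate to bile duct in the order given, were -0.12, -0.098, -0.042 and -0.17. Nqo1 and Gclc lay close to the lowest of these, and Ephx1 and Cbr1 lay below every marker measured. In SY and TP mice the median was 0.0011 and 0.20 for hepatocyte markers, -0.26 and -0.19 for Kupffer cell and macrophage markers, and -0.16 and -0.17 for stellate cell and fibroblast markers. The part of cell makeup in the ratios of Nqo1, Gclc and Gclm was not tested. As ratios hold no level, the labelled tissue could not be checked by the abundance of its markers.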

How the data were processed

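The deposited values are log2 channel ratios, 1 table for all arrays. Not given in the sources used here are the authors' normalization, background correction and rule for blanks, and which channel is divided by which. Probes were named from GEO's platform annotation through Entrez identifiers (7407 with 1 gene, 437 with several, 1752 with none), with RefSeq symbols of GRCm38.p6 used for names only, and probes of a gene were averaged. The 2 arrays of a mouse, which hold the same RNA, were averaged (n = 8). The 8923 genes and unnamed probes were filtered to 8348 measured in at least 6 mice, and limma 3.58.1 in R 4.3.3 (lmFit, then eBayes) tested each against 0, two-sided, with p-values adjusted by Benjamini-Hochberg over all 8348 and called under 0.05. This p leaves out the spread of control mice. SY and TP mice were compared as 2 groups in the same way. Exact permutation tests enumerated all sign flips or group assignments.

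The 5 genes and all gene lists were chosen with earlier results of these data known, so counts over lists carry no test. Named in the text are the 5 genes, up to 4 called and 2 uncalled genes of each list farthest from 0 (2 called for cell types), and the 2 nearest genes of each. Tested on simulated data with the real spreads, the diet fit over 8348 features recovered 81.8% of 1.2-fold, 100% of 1.5-fold and 98.5% of 2-fold changes. The SY and TP fit recovered 16.7%, 81.8% and 98.5%. The simulation changed 200 features, where 3622 were called in the data, and drew each feature on its own. Its spreads were taken over both series together, so they include differences between SY and TP mice, and it held no error of control mice or dye. The rates hold for that setting only. Alternatives covered single probes, centring, scaling, quantile normalization, filters on blanks, robust moderation, single arrays, arrays blocked by mouse and each mouse left out. They also covered each series alone, a series term, a minimum fold, the spread of control mice and, for the 5 genes, exact permutation tests with unadjusted p. Figures were drawn with matplotlib 3.10.9.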

Additional observations from a re-analysis of the deposited data

Results flagged for a closer look

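Nqo1 and Gclm differed between the SY and TP mice in limma's test of that difference. SY minus TP was 0.27 for Nqo1 (SY mean -0.067, TP mean -0.34, limma adjusted p = 0.0414) and 0.23 for Gclm (SY mean -0.22, TP mean -0.44, limma adjusted p = 0.0447). Dixon's quotient (the gap of the lowest or highest mouse over the range) stayed within its two-sided 95% limit in each of the 5 genes, over the 8 mice and over each 4. The closest case was Gclc in TP4168, at 0 against the other 3 TP mice, with a quotient of 0.78, which is near that limit for 4 samples.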

How the results depend on the processing

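In the test against 0, Ephx1 and Cbr1 kept their sign and their call under all 24 alternatives each, Gclm under 23, and Nqo1 and Gclc under 21. Of the 24, 1 was the exact sign-flip test, whose p was not adjusted (0.00781 for Ephx1, Cbr1 and Gclm, 0.03125 for Nqo1 and Gclc). Each gene had 1 probe and values in all 8 mice. Single probes and filters on blanks therefore left its mean unchanged, and say little about stability. The exceptions among the 24 were these. A minimum difference of 1.2-fold called 123 features and 2 of the 5 genes, leaving out Nqo1 (-0.20), Gclc (-0.21) and Gclm (-0.33), each with an adjusted p of 1. The means of Nqo1 and Gclc lie inside that minimum, so for them this setting says nothing about stability. With the control RNA as a mix of 7 mice, 1805 features and 3 of the 5 genes were called, without Nqo1 (-0.20) and Gclc (-0.21). In SY mice alone 2159 features and 3 genes were called, without Nqo1 (-0.067) and Gclc (-0.10). Leaving out 1 mouse at a time gave 3033 to 3722 features and 5 of 5 genes.

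The comparison of SY and TP mice was less stable. Scaling to a common SD left 0 of the 5 genes called by limma (2 at an unadjusted p under 0.05), while 509 features were called. Ephx1 was then at -0.066, Nqo1 at 0.24 and Gclm at 0.17. Quantile normalization left 1 of the 5 called, while 564 features were called, with Ephx1 at -0.0078 and Gclm at 0.18. As deposited, 476 features and 2 of the 5 genes were called. On the first arrays of the mice limma called 0 features (1467 at an unadjusted p under 0.05) and 0 of the 5 genes (3 unadjusted; Nqo1 0.28, Gclm 0.20). On the second arrays it called 228 features and 0 of the 5 (3 unadjusted; Nqo1 0.25, Gclm 0.26). Leaving out 1 mouse gave 43 features (without SY521RL) to 1249 (without SY518Z), against 476 with all mice, with 52 without SY524ROB+L, 57 without SY522ROB, 77 without TP4205, 183 without TP4215 and 188 without TP4168 between them. It gave 0 to 2 of the 5 genes, with Nqo1 at 0.22 to 0.31, Gclm at 0.20 to 0.25 and Gclc at 0.17 to 0.33. Of the 10 pairs 6 to 8 passed, against 8 with all mice, and Nqo1 minus Gclc ranged from -0.010 to 0.051. The loss of the pair Nqo1 and Gclm was fixed by its level mice, and the cause of the other changes was not tested. No paired analysis was possible because every array holds its control in the other channel and no 2 groups share numbered replicates.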
